A study of Drosophila melanogaster with 4 samples.

Results

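The 6 gap genes hb, gt, Kr, kni, tll and hkb were taken from 17684 genes of the fly genome, and every peak of the helicase Maleless (MLE) that touched one of them or its surroundings was listed. A window was the span of the gene in the RefSeq table of Release 6 (dm6) with 10 kb to either side, and a peak belonged to it when at least 1 base was shared. Such windows held 25 of 28246 peaks in control embryos aged 0-2 h and 20 of 22489 peaks in CLAMP RNAi embryos of that age. At 2-4 h they held 24 of 25026 peaks in control embryos and 15 of 15890 peaks in CLAMP RNAi embryos.

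Gap genes are among the earliest zygotic genes of the fly embryo. Maternal gradients of Bicoid, Caudal and Hunchback and signalling by the receptor Torso switch them on in broad bands along the body axis or at its poles. Embryos that lack hb, gt, Kr or kni lose blocks of neighbouring segments. All of them encode transcription factors, which repress or activate each other through enhancers in the DNA around the genes. MLE is an RNA helicase known for its role in the dosage compensation complex, which raises transcription of the single male X. CLAMP is a zinc finger protein that binds GA repeats and is supplied to the egg by the mother. Of the gap genes, gt is the one on the X.

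Sites were mapped by CUT&RUN, a method that guides a nuclease to a protein through an antibody and sequences the fragments cut free. The antibody was rat anti-MLE, and the material was whole male embryos. All mothers carried MTD-GAL4, a driver active in the female germline, so that the RNAi acted on what the mother supplies. Control mothers were MTD-GAL4>GFPRNAi, and experimental mothers were MTD-GAL4>CLAMPRNAi, with the construct UAS-CLAMPRNAi[val22]. Male embryos of either genotype were obtained by crosses with meiotic drive stocks, of which one is labelled +; SD72/CyO and the other carries SPSD/CyO. The younger embryos, aged 0-2 h, precede the transition from maternal to zygotic control, and the older ones, aged 2-4 h, follow it. The lists are called younger control, younger CLAMP RNAi, older control and older CLAMP RNAi. The titles of both 2-4 h samples also say pre-MZT, and samples were grouped by hours and genotype.

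Each group had 1 peak list, although the design text speaks of 2 replicates, so no difference between lists has a replicate check and no test between groups was made. Expression was not measured. The depth of each list is unknown, since the files hold no read numbers. The score of a peak is the authors' value, and it is given as a percentile, the share of peaks of the same list with a score at or below it. Scores in older CLAMP RNAi were coarse, since the single score of 24 was shared by 3274 peaks, or 20.6% of that list, against 2.80% to 4.995% for the commonest score of the other lists. Peaks of equal score count in the percentile. In older CLAMP RNAi a score of 32 thus stands at 61.9 with 46.3% of peaks below it, and a score of 24 at 41.4 with 20.8% below. Percentiles of different lists are therefore set side by side and are not read as a change.

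**Figure D1:**
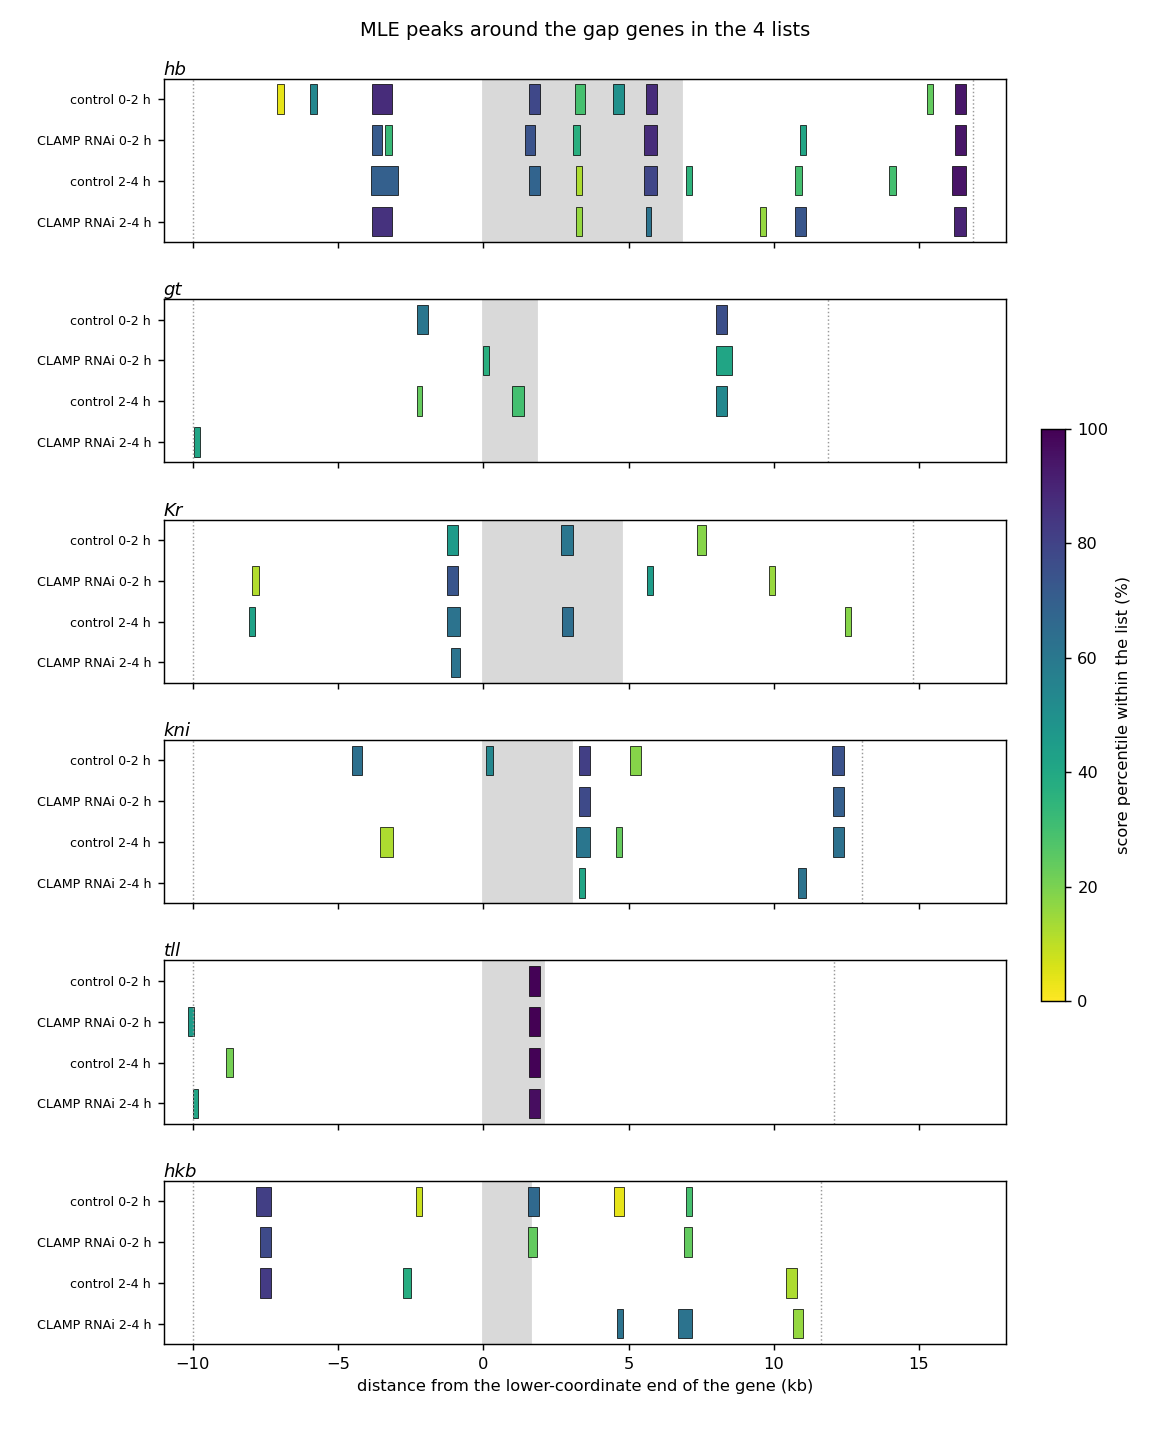
MLE peaks around each gap gene, as bars drawn to scale at their distance in kb from the lower-coordinate end of the gene, with 1 line per list and colour for the score percentile within that list. Grey boxes are the gene spans and dotted lines the limits of the windows, and the peak inside tll stands at the same place in all 4 lists at percentiles of 96.7 to 99.6.

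All the gap genes carried peaks in every list, as most genes of the genome did. Each of the 6 genes had at least 1 peak in its window in younger control, where 97.3% of all genes did. The same held for younger CLAMP RNAi, where 94.6% of all genes had a peak, for older control with 96.8% and for older CLAMP RNAi with 88.0%. The 6 windows together held 1.78 peaks per 10 kb in younger control, 1.43 in younger CLAMP RNAi, 1.71 in older control and 1.07 in older CLAMP RNAi. Over all genes, the median density per window was 1.93, 1.42, 1.69 and 0.949 peaks per 10 kb in the same order. Taken gene by gene, the median of the 6 gap genes was lower than the pooled value, at 1.69, 1.15, 1.5004 and 0.887 peaks per 10 kb, and lay below the median of all genes in each list. Above the median of all genes were 3 of the 6 in younger control and 2 of the 6 in each of the other lists. Single gap genes thus spread from near the bottom to the upper part of the range, and the peak-rich hb raised the pooled density.

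Inside the gene itself, peaks were found at some gap genes and not at others. The share was above that of all genes in each list, a loose comparison with 6 genes and no match for gene length. A peak that crossed an end of the gene also counted, as at hkb at 0-2 h and at gt in younger CLAMP RNAi. In younger control, 5 of the 6 gap genes had a peak touching the span, gt being the exception, and 38.4% of all genes had one. In younger CLAMP RNAi it was 4 of 6 (all genes 31.5%), in older control also 4 of 6 (35.7%), and in older CLAMP RNAi it was 2 of 6 (25.1%). Only hb and tll had a peak in the span in each of the 4 lists, which was so for 18.6% of all genes.

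**Figure D2:**
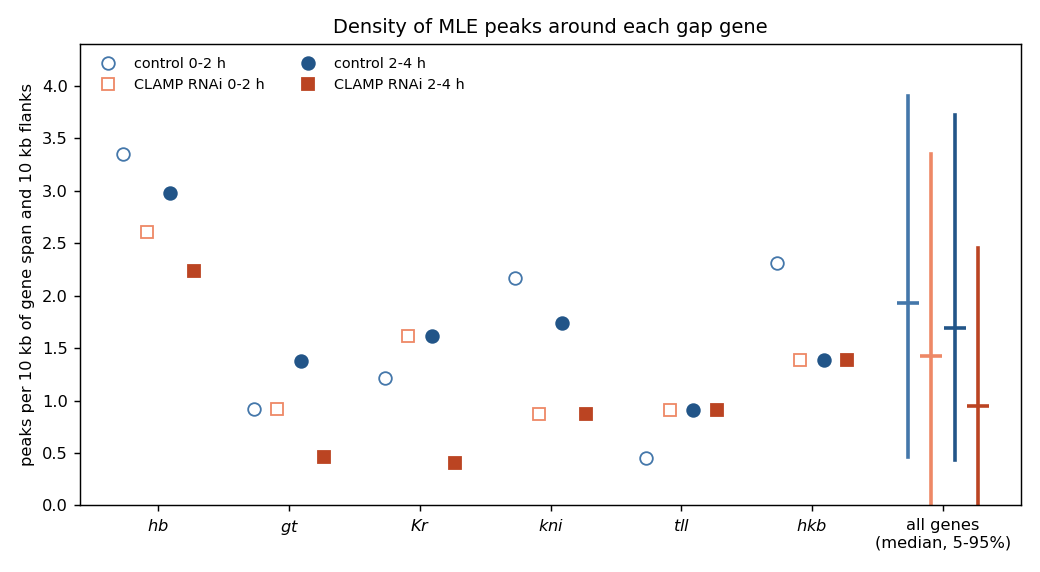
Peaks per 10 kb of window for each gap gene, with 1 point per list, beside the median (short line) and the range from the 5th to the 95th percentile over all 17684 genes (vertical line). In each list hb is the densest gap gene, at 2.24 to 3.35 peaks per 10 kb.

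The trunk gap gene hb encodes a zinc finger factor that patterns the anterior embryo, and its RNA is also supplied by the mother. It spans 3R 8690980 to 8697822. Its window held 9 peaks in younger control, 7 in younger CLAMP RNAi, 8 in older control and 6 in older CLAMP RNAi, the highest count of a gap gene in every list. The density of 3.35, 2.61, 2.98 and 2.24 peaks per 10 kb was at or above that of 88.2%, 86.4%, 87.4% and 91.5% of all genes. Thus hb was peak-rich in all lists, though not outside the range of other genes.

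Overlapping peaks of the 4 lists were merged into regions, and 4 of the 13 regions at hb held a peak of each list. At least 4 such regions were found in the windows of 8.56% of all genes. The highest ranked of them lay beyond the upper end of hb, at 3R 8707116 to 8707610, between genes. Its peak had a score of 553 in younger control (percentile 94.0) and of 879 in younger CLAMP RNAi (94.3). At 2-4 h the score was 1439 in control (94.9) and 102 in CLAMP RNAi (90.4). This site was the top peak of the hb window in all 4 lists, and in younger control it began 9402 bp past the end of the gene, close to the limit of the window.

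Another region common to all lists lay below hb, at 3R 8687127 to 8688043, outside any gene of the table. Its highest peak stood at a percentile of 87.6 in younger control, 71.5 in younger CLAMP RNAi, 69.7 in older control and 85.7 in older CLAMP RNAi. In younger CLAMP RNAi the caller gave it as a pair of peaks, of 370 and 236 bp, and in the other lists as a single peak of 701 to 917 bp. Within the span, the region at 3R 8696500 to 8696948 ranked at 87.6, 87.8, 79.3 and 61.9 in the same order of lists. The last region common to all lists, at 3R 8694065 to 8694497 in the span, was weak, with percentiles of 29.7, 37.1, 12.4 and 15.8.

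A region of hb at 3R 8692417 to 8692926, also in the span, was found in each list except older CLAMP RNAi, at percentiles of 78.4 in younger control, 74.6 in younger CLAMP RNAi and 68.2 in older control. A further region past the upper end, at 3R 8701695 to 8702075, was found in each list except younger control, and ranked at 41.3 in younger CLAMP RNAi, 29.9 in older control and 73.4 in older CLAMP RNAi. The remaining 7 regions at hb were each called in 1 list, and none of them ranked above 53.9.

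The gene gt encodes a leucine zipper factor expressed in an anterior and a posterior band. It spans X 2427113 to 2428967. Its window held 2 peaks in younger control, 2 in younger CLAMP RNAi, 3 in older control and 1 in older CLAMP RNAi. The density of 0.915, 0.915, 1.37 and 0.458 peaks per 10 kb lay below the median of X genes in each list, which was 2.58, 2.13, 2.33 and 1.45. Among the 2705 genes of the X, gt stood at or above 6.40%, 13.5%, 19.7% and 11.3% in the same order. The X-linked gap gene was thus poor in MLE peaks for a gene of its chromosome.

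The peaks of gt were also of middling or low rank. The highest reached a percentile of 76.1 in younger control, 41.3 in younger CLAMP RNAi, 53.1 in older control and 41.4 in older CLAMP RNAi, whereas the median X gene with a peak reached 92.2, 90.05, 90.35 and 85.9. In the 3 lists other than older CLAMP RNAi this was 1 region, at X 2435107 to 2435664, between genes. The highest peak of older CLAMP RNAi lay elsewhere, at X 2417157 to 2417356, near the lower limit of the window, and had no counterpart in another list.

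Near the gene, a region at X 2424814 to 2425198, which touches the neighbour CG32797, was called in both control lists (percentiles 60.7 and 23.8) and in neither CLAMP RNAi list. A weak peak of younger CLAMP RNAi (percentile 37.1) crossed the lower end of gt. Another weak peak, of older control (29.9), lay inside the gene and did not overlap it. No region at gt was found in all 4 lists.

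The gene Kr encodes a zinc finger factor of the central embryo. It spans 2R 25226611 to 25231394 and its window lies wholly within the long neighbour CG9380, whose span in the table surrounds Kr. The window held 3 peaks in younger control, 4 in younger CLAMP RNAi, 4 in older control and 1 in older CLAMP RNAi. Its density of 1.21, 1.61, 1.61 and 0.403 peaks per 10 kb was at or above that of 21.8%, 58.4%, 48.7% and 14.6% of all genes.

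At Kr the region common to all lists lay just outside the span, at 2R 25225373 to 25225820. It ranked at 45.4 in younger control, 73.6 in younger CLAMP RNAi, 61.9 in older control and 61.9 in older CLAMP RNAi. The last value is a score of 32 that 2488 peaks of that list shared, with 46.3% of the list below it. This region held the top peak of the window in both CLAMP RNAi lists. In both control lists the top peak was instead a region inside Kr, at 2R 25229278 to 25229706, with percentiles of 60.7 at 0-2 h and 64.2 at 2-4 h. That region had no peak in either CLAMP RNAi list.

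The gene kni encodes a factor of the nuclear receptor type that patterns the abdomen. It spans 3L 20692330 to 20695378, with no other gene of the table in its window. The window held 5 peaks in younger control, 2 in younger CLAMP RNAi, 4 in older control and 2 in older CLAMP RNAi. The density was 2.17, 0.868, 1.74 and 0.868 peaks per 10 kb, at or above that of 57.4%, 23.2%, 51.0% and 40.6% of all genes. Counts were lower with CLAMP RNAi at both ages, in lists that were also shorter.

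The region common to all lists at kni lay just past the upper end of the gene, at 3L 20695509 to 20696011. It ranked at 81.5 in younger control, 77.7 in younger CLAMP RNAi, 60.8 in older control and 41.4 in older CLAMP RNAi. A region farther out, at 3L 20704349 to 20704752, was found in each list except older CLAMP RNAi, at percentiles of 74.9, 70.2 and 63.1. It was the top peak of the window in older control. In older CLAMP RNAi the top peak was a nearby one, at 3L 20703172 to 20703429, with a percentile of 61.9 and no peak of another list. The remaining regions at kni were also called in 1 list each, among them the one inside the gene, at 3L 20692433 to 20692652, in younger control (percentile 53.9).

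The terminal gap gene tll encodes a nuclear receptor expressed at both poles of the embryo under Torso signalling. It carried the strongest peak of any gap gene. The gene spans 3R 30852315 to 30854400, and the peak lay inside it at 3R 30853884 to 30854264, with the same start and end in all 4 lists. On the 6 arms 282 intervals had this property, where the shortest list held 15890 peaks, and this was the only one in the gap gene windows. Its width was common among strong peaks, as given below.

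The score of the tll peak was 7850 in younger control, which ranked it 172 in that list (percentile 99.4). In younger CLAMP RNAi the score was 20175 (rank 85, percentile 99.6). In older control it was 13789 (rank 195, percentile 99.2) and in older CLAMP RNAi it was 305 (rank 530, percentile 96.7). The peak was thus among the highest ranked of every list. A peak at or above the 95th percentile inside the span in each of the 4 lists was found at 2.26% of all genes, and among the gap genes at tll alone. This cut was not set beforehand, and the lowest value at tll, 96.7, lies close above it, so the share is a description only.

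Outside this peak the tll window was nearly empty. It held 1 peak in all in younger control and 2 in each of the other lists, and the densities of 0.453, 0.906, 0.906 and 0.906 peaks per 10 kb were at or above those of 4.43%, 25.7%, 18.1% and 43.9% of all genes. The remaining peaks were weak ones near the lower limit of the window, at percentiles of 21.0 to 45.1. One of these regions, at 3R 30842151 to 30842509, was called in both CLAMP RNAi lists (percentiles 45.1 and 41.4) and in neither control list. Its younger peak ended at 30842350 and its older peak began at 30842310, so they shared only their ends. The younger peak had its middle outside the window and was not counted when peaks were assigned by midpoint.

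The gene hkb encodes a zinc finger factor of the poles that helps to set the limits of the gut and of the mesoderm. It spans 3R 4345015 to 4346646, and its window reaches the neighbours Skp2, CG14645 and CG1103. It held 5 peaks in younger control and 3 in each of the other lists. The density of 2.31, 1.39, 1.39 and 1.39 peaks per 10 kb was at or above that of 61.6%, 47.2%, 37.6% and 67.8% of all genes.

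The highest ranked region at hkb lay at the end of Skp2, at 3R 4337187 to 4337695, and was found in each list except older CLAMP RNAi. Its percentiles were 81.5 in younger control, 77.7 in younger CLAMP RNAi and 82.8 in older control. A region at the upper end of hkb itself, at 3R 4346559 to 4346935, was called at 0-2 h only, with percentiles of 66.2 in control and 24.2 in CLAMP RNAi. In older CLAMP RNAi the top peaks were a pair past the upper end of the gene, in the regions 3R 4349522 to 4349860 and 3R 4351730 to 4352202, both at a score of 32 (percentile 61.9), a score that 2488 peaks of that list shared. No region at hkb was found in all 4 lists.

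**Figure D3:**
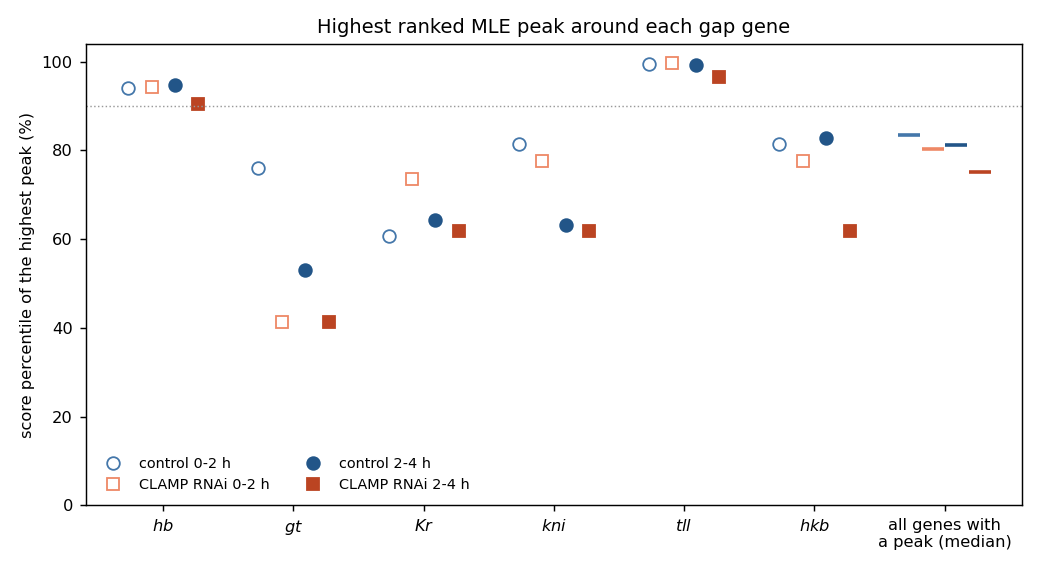
Score percentile of the highest ranked peak in the window of each gap gene, with 1 point per list, beside the median over all genes with a peak (short lines). The genes hb and tll lie above the 90th percentile (dotted line) in all 4 lists, and the other 4 genes lie below it in all 4.

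Across the 6 genes, a cut at the 90th percentile of the highest ranked peak set hb and tll apart from the other 4. A peak at or above the 90th percentile was present at hb and tll, 2 of 6, in younger control, where 34.0% of all genes had one. In the other lists it was the same 2 genes, against 27.9% of all genes in younger CLAMP RNAi, 30.2% in older control and 21.7% in older CLAMP RNAi. Such a peak in each of the 4 lists was found at 15.3% of all genes. Such peaks were thus present at 2 of the 6 gap genes, a count near the share over all genes. With 6 genes in all the shares can be set side by side only loosely. For hb the call depends on the settings. With 5 kb to either side its highest percentiles were 87.6, 87.8, 79.3 and 85.7, while those of tll stayed as given. With lists of equal length hb reached 89.3 in younger control and stayed above 90 in the other lists. In older CLAMP RNAi its 90.4 counts peaks of equal score, and 89.9% of that list scored below it. With a score of at least 50, hb reached 87.9 in younger control and 60.9 in older CLAMP RNAi, and tll 86.4 in the latter.

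**Figure D4:**
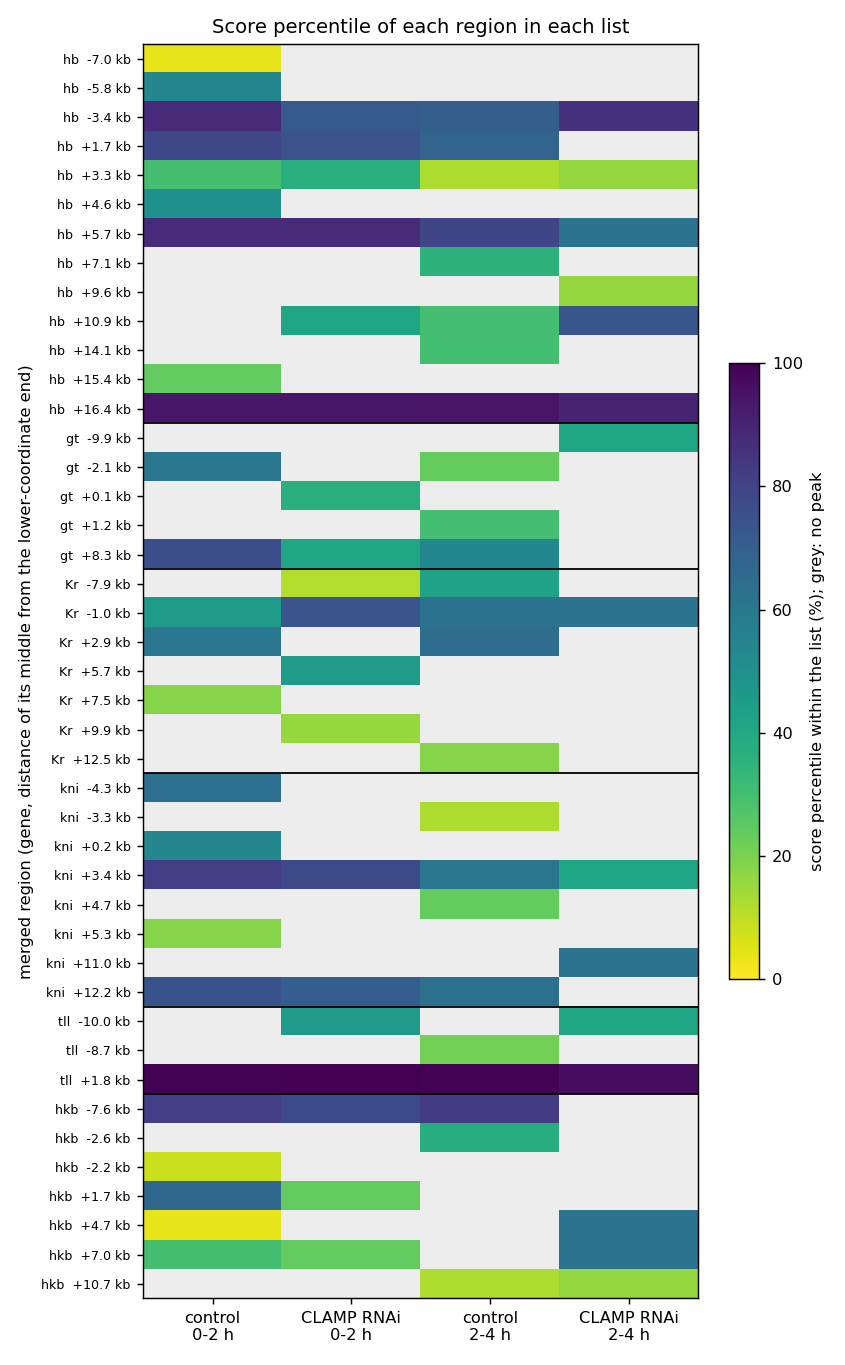
Score percentile of each merged region (rows, named by gene and by the distance of the middle of the region from the lower-coordinate end of the gene) in each list (columns), with grey where the list has no peak. Of the 43 regions, 7 are filled in all 4 columns and 23 in a single column.

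Merging gave 43 regions over the 6 windows. A peak of each list was present in 7 of them, 16.3%, against 19.8% of all merged regions of the genome. They lay at hb (4), Kr, kni and tll, so 4 of the 6 genes had such a region, where 66.6% of all genes did. Regions of a single list numbered 23 of 43, or 53.5%, against 44.7% of all regions. The 9 of younger control alone made up 20.9% (all regions 18.2%) while the 8 of older control alone made up 18.6% (all regions 8.96%).

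Regions of each list except older CLAMP RNAi numbered 4 of 43, at hb, gt, kni and hkb, against 15.2% of all regions. Leaving out older CLAMP RNAi, the coarse and shortest list, 11 of 40 regions held a peak of each of the remaining 3 lists, or 27.5%, and over the genome the share was 38.9%. Regions of both control lists and no other numbered 2 of 43, those in Kr and near gt (all regions 6.38%). Regions of both CLAMP RNAi lists and no other numbered 1, the weak one near tll (all regions 0.880%). Regions with a peak at or above the 90th percentile in any list numbered 2 of 43, the site past hb and the one in tll, against 8.95% of all regions.

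Whether the sites of control embryos were also called in embryos of CLAMP RNAi mothers was compared by overlap. How far the RNAi lowered CLAMP is not measured by these lists. At 0-2 h, 13 of 25 control peaks in the gap gene windows shared a base with a CLAMP RNAi peak, or 52.0% (exact 95% interval 31.3% to 72.2%, counting error only), against 58.1% of all control peaks. At 2-4 h it was 9 of 24, or 37.5% (18.8% to 59.4%), against 40.6%. Both genome-wide shares lie within the intervals, so no departure of the gap genes from other peaks was detectable between the genotypes with these numbers. The intervals take peaks of the same window as independent, although 9 of the 25 younger control peaks lay at hb, and ranks were not matched. They are therefore no test.

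Overlap was more frequent among the higher ranked peaks. Of the younger control peaks with a percentile of at least 50, 10 of 15 had a CLAMP RNAi peak (66.7%, 38.4% to 88.2%), against 81.8% of all such peaks. Of the 10 weaker ones, 3 had one, against 34.3% of all weaker peaks. At 2-4 h the numbers were 6 of 11 and 3 of 13, against 60.3% and 20.6%. In the other direction, 14 of 20 younger CLAMP RNAi peaks in the windows had a control peak of that age, 70.0% (45.7% to 88.1%), against 74.4% of all. At 2-4 h it was 9 of 15, 60.0% (32.3% to 83.7%), against 65.0%.

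Between the ages, 13 of 25 younger control peaks overlapped an older control peak, or 52.0% (31.3% to 72.2%), against 64.8% of all. In the other direction it was 13 of 24 older control peaks, or 54.2% (32.8% to 74.4%), against 74.0% of all, a share close to the upper limit of the interval. The share differed by rank, since 11 of 11 older control peaks with a percentile of at least 50 had a younger counterpart (all such peaks 92.0%), against 2 of the 13 weaker ones (all weaker peaks 55.8%). With CLAMP RNAi, 11 of 20 younger peaks overlapped an older one, or 55.0% (31.5% to 76.9%), against 42.5% of all.

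The windows held 5 fewer peaks in CLAMP RNAi than in control at 0-2 h (20 and 25) and 9 fewer at 2-4 h (15 and 24). The whole lists were shorter too, with 22489 and 28246 peaks at 0-2 h and 15890 and 25026 at 2-4 h. Every list was then restricted to its 15890 highest scores, with a random choice among equal scores at the cut. The counts were 16 in control and 16 in CLAMP RNAi at 0-2 h, and 13 in control and 15 in CLAMP RNAi at 2-4 h. With this choice the difference at 0-2 h was nil and that at 2-4 h turned around. At 0-2 h it left out a Kr control peak of score 42 and kept an hb CLAMP RNAi peak of score 40. Another choice could thus leave a lower total with CLAMP RNAi at that age. At 2-4 h it kept an hkb control peak of score 48. The counts below for these genes and lists depend on the choice. Single genes did not all follow the total. At equal length kni held 4 peaks in control and 2 in CLAMP RNAi at 0-2 h, and hkb 2 and 1, whereas hb held 6 and 7, Kr 1 and 2, tll 1 and 2, and gt 2 in both. At 2-4 h Kr held 3 in control and 1 in CLAMP RNAi, whereas hb held 4 and 6, hkb 2 and 3, and tll 1 and 2, with kni at 2 in both and gt at 1 in both.

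A chosen set of other genes, called network genes here, was set beside the gap genes. It held 10 maternal inputs (bcd, cad, nanos, pum, osk, tor, tsl, trk, cic, gro) and 5 head gap genes (oc, ems, btd, slp1, slp2). A further 6 (knrl, nub, pdm2, D, jing, cas) were grouped here as gap-like trunk genes, a label that these data do not test. All 21 had a peak in their window in each of the 4 lists, which was so for 83.5% of all genes. The median of their highest percentiles was 90.1 in younger control, 89.6 in younger CLAMP RNAi, 90.4 in older control and 83.1 in older CLAMP RNAi. For the 6 gap genes the medians were 81.5, 77.7, 73.5 and 61.9, and for all genes with a peak 83.5, 80.2, 81.3 and 75.2. Above the median of all genes lay 15, 14, 15 and 14 of the 21 network genes. Of the 6 gap genes it was hb and tll in each list, joined by hkb in older control. Several of these genes are far longer than the gap genes, and a longer window has more room for a high peak.

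Named here are pum, oc and knrl, the network genes with the highest percentile in any one list. The gene pum, whose product represses translation of maternal hb RNA, reached 99.5 in younger control, 99.1 in younger CLAMP RNAi, 99.3 in older control and 99.9 in older CLAMP RNAi. The head gap gene oc, a homeobox gene, reached 97.1, 97.4, 97.5 and 99.7, so its place rests on the coarse list of older CLAMP RNAi. In the other lists D (97.6 in younger control) or cad (97.7 in younger CLAMP RNAi and 97.7 in older control), both named after their values were seen, stood above it. The gene knrl, a close relative of kni, reached 99.5, 99.3, 99.4 and 99.1, whereas kni reached 81.5, 77.7, 63.1 and 61.9. Of the pair of related genes, knrl thus had the higher ranked top peak in each list, in a longer window with 12, 10, 7 and 4 peaks.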

How the data were processed

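MLE CUT&RUN peaks of male embryos were analysed in 4 groups with 1 list each. Per the submitters' processing notes, the tools were FastQC, Trim Galore, BWA, Bowtie2, SAMtools, Picard 2.20.2 and MACS2, with no role or order given, and the build was dm6. Each deposited list had 5 columns, and the score in the last was used only to rank peaks within a list. Threshold, control library and pooling of replicates are not given in the sources used here. Peak names show 1 sorted alignment with duplicates removed per list. Repeated intervals were collapsed to the highest score (2519 in younger control, 1548 in younger CLAMP RNAi, 2683 in older control, 67 in older CLAMP RNAi). Peaks on X, 4 and the arms of chromosomes 2 and 3 were used. Coordinates are 1-based.

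Genes came from the RefSeq table of Release 6, which gives no strand or exons. Windows, overlaps (at least 1 base), exact Clopper-Pearson intervals and percentiles were computed with Python 3.11.15, pandas 2.3.3, numpy 2.4.6 and scipy 1.17.1, and tested on simulated data. The members and lists were chosen with earlier results of these data known. Named were, for each gene, the top peak of each list, regions of all 4 lists and regions at or above the 90th percentile. Of the other network genes, the 3 with the highest percentile in any list were named. Regions of fewer lists were named after their values were seen. The planned comparison of GA motifs in promoters was not run, since sequences were not used here.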

Additional observations from a re-analysis of the deposited data

Results flagged for a closer look

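These items were higher in the CLAMP RNAi list than in the control list of the younger embryos and lower in that of the older embryos. The difference between ages was not tested, for lack of replicates, and percentiles come from lists whose scores share no scale. Peaks in the Kr window differed by 1 at 0-2 h (4 in CLAMP RNAi, 3 in control) and by -3 at 2-4 h (1 and 4). With 20 kb to either side the counts at Kr were 9 and 9 at 0-2 h, and the opposite signs were kept under 4 of 7 alternatives. Without collapsing repeats and by midpoint the counts at Kr were unchanged, so these alternatives are no check. At equal list length the younger control count at Kr depends on a random choice among equal scores. The highest percentile at Kr differed by 12.9 points at 0-2 h and by -2.30 points at 2-4 h. The 2-4 h difference turned to 18.3 points with lists of equal length (61.9 in CLAMP RNAi, 43.6 in control) and to 9.18 points with 20 kb (73.4 and 64.2), so that both ages had the same sign. At 0-2 h these alternatives gave 32.5 and 0.166 points. At hb it differed by 0.286 points and by -4.43 points, and at tll by 0.232 points and by -2.55 points. The opposite signs were kept under 7 of 7 alternatives at tll and 6 of 7 at hb, where with 5 kb to either side the 2-4 h difference was 6.41 points. At tll the other windows and assignment by midpoint returned the same peak with the same values. With 20 kb and by midpoint this was also so at hb. Those alternatives are therefore no check of the signs. The coarse scores of older CLAMP RNAi stand on 1 side of each 2-4 h difference, and their part in it was not tested.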

How the results depend on the processing

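Values are in the order younger control, younger CLAMP RNAi, older control and older CLAMP RNAi. With the span alone the gap genes held 8, 6, 6 and 3 peaks, or 3.95, 2.96, 2.96 and 1.48 per 10 kb, a density raised by construction because a peak that only touches a short span counts. A peak was then present in 15 of 24 pairs of gene and list, the median highest percentile was 45.5 (main value 77.7, pairs without a peak set to 0), and 10 regions remained, 3 of them in each list. With 5 kb, counts were 17, 12, 15 and 9, the median percentile 65.2 and the regions 26. With 20 kb, counts were 47, 35, 35 and 23 and the regions 76. With a score of at least 50, which is no common scale, counts were 15, 11, 12 and 3, densities 1.07, 0.784, 0.856 and 0.214 per 10 kb, the median percentile 61.4 and the regions 19, 3 of them in each list. With lists of equal length, counts were 16, 16, 13 and 15, control densities 1.14 and 0.927, and the median percentile 67.2. The first 3 of these counts depend on a random choice among equal scores at the cut. Without collapsing repeats the median percentile was 78.6. An overlap of 50% of both intervals left 7 regions in each list. Without older CLAMP RNAi, an alternative chosen after seeing the data, 11 regions were in each list. The 3 overlap shares stayed within their intervals under all alternatives run. The intervals are wide and the alternatives share many of the same peaks, so this is a weak check. The share of control peaks with a CLAMP RNAi peak at 2-4 h ran from 25% with a score of at least 50 to 50% with the span alone. No paired analysis was possible because each group had 1 list. The GA motif alternative was not run. Depth is unknown, which limits any reading of a missing peak.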

Other observations

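The width of the tll peak, 381 bp, was common among strong peaks. Of peaks at or above the 99th percentile, 30.0% had exactly this width in younger control, 26.7% in younger CLAMP RNAi, 26.7% in older control and 35.8% in older CLAMP RNAi. Over all peaks the shares were 6.31%, 7.27%, 8.39% and 5.75%. In the gap gene windows 4, 2, 3 and 1 peaks had it. The commonest width was the lowest one, 200 bp, in each list. It was that of 2 of 25 gap gene peaks in younger control (all peaks 21.9%), 3 of 20 in younger CLAMP RNAi (19.1%), 6 of 24 in older control (12.4%) and 6 of 15 in older CLAMP RNAi (36.6%).

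Just inside the window limit, between 8 and 10 kb from a gap gene, there were 3 peaks in younger control, 3 in younger CLAMP RNAi, 4 in older control and 4 in older CLAMP RNAi, at percentiles up to 94.9. Just outside it, between 10 and 12 kb, there were 3, 3, 2 and 2 peaks, at percentiles up to 86.4.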
